A study of Triticum aestivum with 4 samples.

Results

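The transcripts described here code for 3 proteins of the translation machinery of common wheat (Triticum aestivum): the cap-binding proteins eIF4E and NCBP and the elongation factor TEF1. They were taken by name, as every probe set whose gene symbol or synonym in the probe annotation is one of these, which gave 3 of the 771 genes in that annotation, read by 4 of 61179 non-control probe sets. eIF4E (LOC543485) was paired with Ta.14707.1.S1_at, NCBP (LOC100049030) with TaAffx.63045.1.S1_at, and TEF1 (LOC543386) with Ta.659.2.S1_x_at and Ta.659.3.S1_x_at. The ending _x_at marks probes that may also bind other transcripts, so both TEF1 probe sets may read related copies.

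In eukaryotes, eIF4E holds the methylated cap at the start of an mRNA and, with the scaffold protein eIF4G, brings the message to the ribosome. NCBP is a relative of eIF4E that also binds the cap, described in plants as a separate branch of that family. TEF1 is elongation factor 1-alpha, which delivers charged transfer RNAs to the ribosome during elongation. It is one of the more abundant proteins of the cell and is widely used as a constant standard when other transcripts are measured. In crop plants eIF4E is also known as a host factor for potyviruses.

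Total RNA came from the roots of seedlings at the stage of 2 leaves and was hybridised to Affymetrix wheat arrays, 1 array for each of 4 groups. The groups were Luohan No.2 in polyethylene glycol (PEG), Luohan No.2 in tap water, Chinese Spring in PEG and Chinese Spring in tap water. PEG lasted 6 h at an osmotic potential of -0.49 MPa and imitates drought by holding back water from the root. The labels do not say how many seedlings entered a sample, and with n = 1 array per group no value below has a spread between plants. In whole roots, fewer cells of a type and less RNA per cell cannot be told apart.

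Values are MAS5 signals on a linear scale. Their 2% trimmed mean was 100.02 on every array, so a signal of 100 is about the average of an array. All 4 probe sets were above 100 on all 4 arrays, as were 10574 probe sets in all, and these form the comparison set wherever brightness matters. The ratio of 5' to 3' signal of the sucrose synthase control, which falls as labelled transcripts become less complete, was 0.0216 on the Luohan No.2 PEG array and 0.0554 on its water array, and 0.0693 and 0.0805 on the Chinese Spring PEG and water arrays. For dap, a bacterial transcript added to the RNA as a labelling control, this ratio was 0.0395 and 0.0378 on the Luohan No.2 PEG and water arrays and 0.290 and 0.276 on the Chinese Spring PEG and water arrays. These ratios separate the cultivars, so labelling and cultivar cannot be told apart. The sucrose synthase ratio was also lower with PEG than in water in both cultivars, while the dap ratio was not. For the G6PDH control it was 0.243 and 0.375 on the Luohan No.2 PEG and water arrays, and 0.388 and 0.390 for Chinese Spring. For ubiquitin it was 1.59 and 2.45, and 2.73 and 3.50, in the same order. Transcript completeness and PEG therefore cannot be told apart either. Of the root genes listed as tissue markers, TaALMT1 and TaDMAS1 were found in the annotation, and their summed signal lay between 346.2 and 442.2. TaDMAS1 made up most of that sum. TaALMT1 had 10.6, not above background, and 22.9 on the Luohan No.2 PEG and water arrays. It had 66.8 and 27.6 on the Chinese Spring PEG and water arrays. The 5 green-tissue genes found had summed signals of 58.8 and 88.1 on the Luohan No.2 PEG and water arrays and 337.1 and 633.4 on the Chinese Spring PEG and water arrays. The median signal over all probe sets was 13.9 and 13.5 on the Luohan No.2 PEG and water arrays. It was 20.2 and 20.3 on the Chinese Spring PEG and water arrays, so dim signals in general ran lower in Luohan No.2.

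After PEG, the cap-binding protein eIF4E had slightly lower signals in both cultivars, and by nearly the same amount. Its signal was 1365.9 on the Luohan No.2 PEG array and 1680.4 on the water array. In Chinese Spring it was 897.7 on the PEG array and 1120.0 on the water array. The 4 arrays thus ran in the order Luohan No.2 water, Luohan No.2 PEG, Chinese Spring water and Chinese Spring PEG, with cultivar setting the upper and the lower pair. The log2 change with PEG was -0.30 for Luohan No.2 and -0.32 for Chinese Spring, or 1.23-fold and 1.25-fold lower. As a partial measure of noise, log2 changes of probe sets assigned to one sequence cluster spread with an SD of 0.43 for Luohan No.2 and 0.27 for Chinese Spring (4810 probe sets above 100 in 1844 clusters). The eIF4E change lay within that spread in Luohan No.2 and just beyond it in Chinese Spring. That SD holds noise between probes of 1 array pair and any true differences between transcripts of a cluster. It holds none of the spread between plants and no error shared by a whole array.

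NCBP, the other cap-binding protein, had opposite changes in the cultivars. Its signal was 262.8 on the Luohan No.2 PEG array and 458.0 on the water array. In Chinese Spring it was 337.7 on the PEG array and 243.5 on the water array. The Luohan No.2 water array was the highest of the 4, and the remaining arrays lay between 243.5 and 337.7. NCBP was therefore 1.74-fold lower with PEG in Luohan No.2 (log2 change -0.80) and 1.39-fold higher in Chinese Spring (0.47), in each case more than the spread between probe sets of a cluster. The change in Luohan No.2 minus that in Chinese Spring was -1.27 on the log2 scale, a 2.42-fold difference, where the same measure over clusters had an SD of 0.47. Of the probe sets above 100 on all arrays, 16.6% had responses at least 2-fold apart between the cultivars, so a gap of this kind was common on these arrays. With 1 array per group the difference could not be tested. Of the 4 arrays, Luohan No.2 in PEG had the smallest sucrose synthase 5' to 3' ratio (0.0216). Its dap ratio (0.0395) was close to that of the Luohan No.2 water array (0.0378), where NCBP was highest. The lowest NCBP signal (243.5) came from Chinese Spring in water, which had the largest sucrose synthase ratio (0.0805). Whether labelling had a part in the NCBP difference was not tested.

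**Figure D1:**
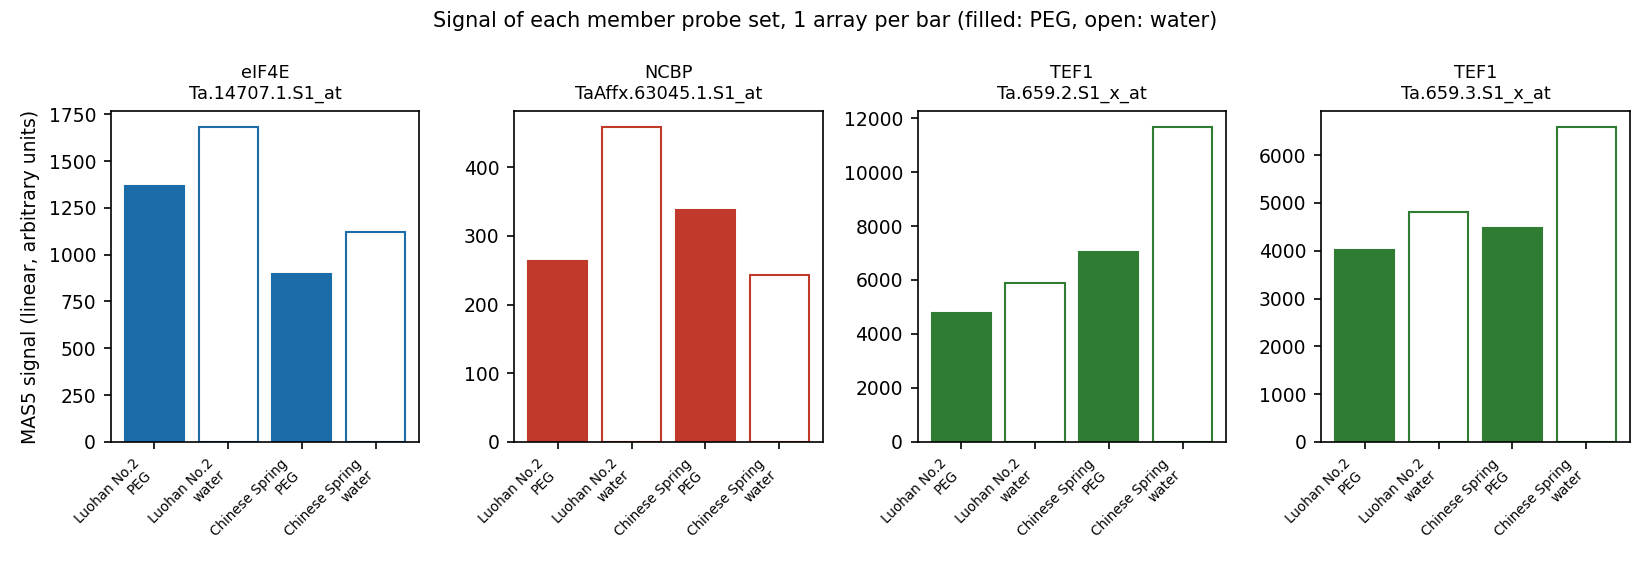
Bars give the MAS5 signal (linear scale, from 0) of each member probe set on the 4 arrays, 1 array per bar, with PEG filled and water open; the vertical scales differ between panels. eIF4E is higher on both Luohan No.2 arrays (1365.9 and 1680.4), NCBP is highest on the Luohan No.2 water array (458.0), and both TEF1 probe sets are highest on the Chinese Spring water array.

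Both probe sets of the elongation factor TEF1 had lower signals with PEG in both cultivars, with the larger differences in Chinese Spring. The brighter, Ta.659.2.S1_x_at, had a signal of 4779.8 on the Luohan No.2 PEG array and 5875.9 on the water array, against 7039.0 and 11660.1 on the Chinese Spring PEG and water arrays. The other, Ta.659.3.S1_x_at, had 4009.4 and 4818.5 on the Luohan No.2 PEG and water arrays and 4485.3 and 6584.9 on the Chinese Spring PEG and water arrays. On both, Chinese Spring in water was the highest and Luohan No.2 in PEG the lowest, while the middle positions changed places between the probe sets. The log2 changes with PEG were -0.30 and -0.27 in Luohan No.2, or 1.23-fold and 1.20-fold lower. They were -0.73 and -0.55 in Chinese Spring, which is 1.66-fold and 1.47-fold lower. Among probe sets above 1000 on all arrays, the spread between probe sets of a cluster had an SD of 0.30 for Luohan No.2 and 0.18 for Chinese Spring. The TEF1 changes were thus about the size of that spread in Luohan No.2 and larger than it in Chinese Spring. Control probe sets labelled ef1a are also on the array and were set aside with the other controls. The brightest of them, AFFX-Ta-ef1a-M_s_at, had 12.5 and 36.4 on the Luohan No.2 PEG and water arrays. It had 28.9 and 83.2 on the Chinese Spring PEG and water arrays, far below both TEF1 probe sets. Which transcript or strand these controls read is not given.

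The sequence cluster of TEF1, read from the probe set names, holds 6 more probe sets that the annotation pairs with no gene, and they give a wider view of the same transcript family. They were looked at after the values of the annotated TEF1 probe sets were known, and their names do not show that they read TEF1 itself. All 8 probe sets were bright, with median signals of 5347 and 5489 on the Luohan No.2 PEG and water arrays and 6088 and 8763 on the Chinese Spring PEG and water arrays. In Chinese Spring all 8 were lower on the PEG array, with log2 changes between -0.75 and -0.23 and a median of -0.48. In Luohan No.2, 5 were lower and 3 were higher, between -0.30 and 0.33 with a median of -0.04. The annotated TEF1 probe sets had the lowest changes of the 8 in Luohan No.2, and 3 of the other 6 were higher with PEG there. Scaling moves these signs. With each array scaled to its median over the probe sets above background on all arrays, 6 of 8 were higher with PEG in Luohan No.2. With arrays scaled to the hybridisation controls, 0 of 8 were.

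In every probe set of the cluster the change in Luohan No.2 was above that in Chinese Spring, by 0.29 to 0.87 on the log2 scale. These probe sets were read on the same arrays, so they are not independent repeats. Over all probe sets above 100 on all arrays, the same difference had a median of 0.08, so it was more often positive than negative. Its middle 50% there lay between -0.39 and 0.53, and the largest difference of the cluster was above that range. For the annotated TEF1 probe sets this difference of responses was 0.43 and 0.29, inside that range. It was within the SD of 0.47 for probe sets above 100 and, for the first, above the SD of 0.30 for those above 1000. Quantile normalization lowered it to 0.18 and 0.09. It was -0.18 and -0.32 when arrays were scaled to the hybridisation controls, so its direction depends on the scaling. These controls are bacterial and phage transcripts added in a fixed amount, and in Luohan No.2 all 27 of their probe sets were higher with PEG, by 0.48 on the mean log2 scale, against 4 of 27 in Chinese Spring, with a mean of -0.13.

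No member probe set was 2-fold apart between PEG and water in either cultivar. The count was 0 of 4 in Luohan No.2, where 17.7% of all 38468 measured probe sets and 11.9% of those above 100 on all arrays were that far apart. It was 0 of 4 in Chinese Spring, against 20.5% of 46102 and 9.98% of the bright set. The median log2 change of the 4 was -0.30 for Luohan No.2 and -0.44 for Chinese Spring, where the medians of the bright set were 0.06 and -0.04. With the middle 50% of the bright set between -0.34 and 0.43 in Luohan No.2 and between -0.35 and 0.26 in Chinese Spring, eIF4E lay inside this middle range in both cultivars and NCBP outside it in both. TEF1 lay inside it in Luohan No.2 and below it in Chinese Spring. When arrays were scaled to the hybridisation controls, an alternative chosen after the data were seen, the NCBP change in Luohan No.2 passed 2-fold at -1.28.

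**Figure D2:**
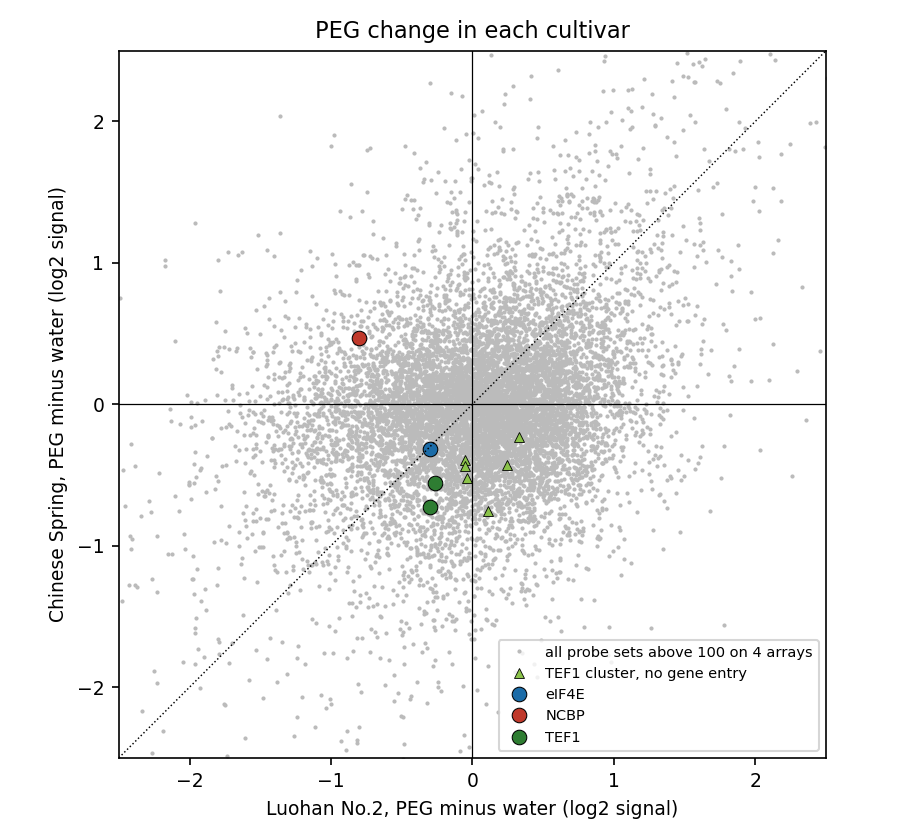
Each point is 1 probe set, with its log2 change with PEG in Luohan No.2 on the horizontal axis and in Chinese Spring on the vertical axis; grey points are the 10574 probe sets above a signal of 100 on all arrays (109 lie outside the axes), large circles the members, triangles the TEF1 cluster probe sets with no gene entry, and the dotted line marks equal changes. eIF4E lies on that line, TEF1 and its cluster lie below it, and NCBP lies above it at -0.80 and 0.47.

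The PEG effect over both cultivars was tested with limma, in a fit on all 48877 probe sets above background with cultivar as a block. Each probe set keeps only 1 residual degree of freedom there and borrows a prior worth 11.63 degrees of freedom from all other probe sets, so each change is set mainly against a pooled spread. None of the 4 member probe sets passed, where 1.32% of all tested probe sets did, and 0 of 4 had an unadjusted p under 0.05. The log2 effect was -0.31 ± 0.41 (SE) for eIF4E, with an adjusted p of 0.915 in limma. It was -0.16 ± 0.44 for NCBP, with an adjusted p of 0.970 in limma, a mean of opposite values that describes neither cultivar. For TEF1 it was -0.51 ± 0.41 and -0.41 ± 0.41, with limma adjusted p of 0.825 and 0.875.

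Between the cultivars, eIF4E was higher in Luohan No.2 and TEF1 was higher in Chinese Spring, on the PEG and on the water arrays. eIF4E was 1.52-fold higher in Luohan No.2 in PEG and 1.50-fold higher in water. TEF1 was 1.47-fold and 1.12-fold lower in Luohan No.2 in PEG by its probe sets, and 1.98-fold and 1.37-fold lower in water. Over the whole TEF1 cluster in water all 8 probe sets were lower in Luohan No.2, by 0.45 to 0.99 on the log2 scale, while in PEG 7 were lower and 1 was higher, with log2 differences between -0.56 and 0.04. NCBP was 1.29-fold lower in Luohan No.2 in PEG and 1.88-fold higher in water. The spread between probe sets of a cluster, for those above 100, had an SD of 0.44 in PEG and 0.34 in water.

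None of the 4 differed at least 2-fold between the cultivars, where 11.1% of the bright set did in PEG and 7.69% in water. In limma, 0 of 4 passed for cultivar, with treatment as the block, against 2.06% of all tested probe sets, and 0 of 4 had an unadjusted p under 0.05. The log2 difference, Luohan No.2 minus Chinese Spring, was 0.60 ± 0.41 (SE) for eIF4E and -0.77 ± 0.41 for the brighter TEF1 probe set, with limma adjusted p of 0.621 and 0.474. For NCBP and the other TEF1 probe set it was 0.27 and -0.31. These counts and one direction depend on the scaling. When arrays were scaled to the hybridisation controls, 2 of 4 passed 2-fold in water, eIF4E at a log2 difference of 1.07 and NCBP at 1.39, and the difference of that other TEF1 probe set in water was 0.03. Sequence variants of a cultivar that alter hybridisation may enter any of these differences, which was not tested.

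Set against the elongation factor within each array, the PEG difference of NCBP ran in opposite senses in the cultivars, and that of eIF4E was smaller. This comparison is between changes, not levels. Any single scaling factor of a whole array drops out of it, but quantile normalization does not. In Luohan No.2 the PEG change of NCBP was below that of all 8 TEF1 cluster probe sets, by 0.50 to 1.13 on the log2 scale. In Chinese Spring it was above all 8, by 0.70 to 1.23. For eIF4E the difference in Luohan No.2 was between -0.63 and 0.00, and for the annotated TEF1 probe sets alone it was -0.03 and 0.00. In Chinese Spring the eIF4E change was above 7 of the 8 and below 1, between -0.09 and 0.44.

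Averaged over eIF4E and NCBP, the cap-binding change minus the mean change of the annotated TEF1 probe sets was -0.27 for Luohan No.2 and 0.72 for Chinese Spring on the log2 scale. The members of this average disagree, since eIF4E alone gave -0.02 in Luohan No.2 and 0.32 in Chinese Spring, and NCBP alone gave -0.52 and 1.11. Against all 8 TEF1 cluster probe sets the average of both was -0.55 in Luohan No.2, a larger difference, and 0.58 in Chinese Spring. With 1 array per group none of these differences has a test.

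Among other genes of translation, a list of initiation factors, elongation factors, release factors, poly(A)-binding and ribosomal proteins matched 4 genes with 5 probe sets. The beta subunit of eIF2, which carries the initiator transfer RNA to the ribosome, had a signal of 696.0 on the Luohan No.2 PEG array and 1303.3 on the water array, against 1141.9 and 1261.0 on the Chinese Spring PEG and water arrays. The Luohan No.2 PEG array stood below the rest, and its log2 change with PEG was -0.91, where that of Chinese Spring was -0.14. Eif4B, an RNA-binding initiation factor that aids unwinding of the message, had 694.9 and 635.3 in Luohan No.2 PEG and water and 900.2 and 729.8 in Chinese Spring PEG and water. It was 1.09-fold and 1.23-fold higher with PEG, the other way from eIF4E.

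The probe sets of RPS29, a protein of the small ribosomal subunit, disagreed. The brighter one had a log2 difference of 0.24 with PEG in Luohan No.2, against -0.17 for Chinese Spring. The other, Ta.30687.2.S1_x_at, had 97.8 on the Luohan No.2 PEG array and 12.9 on the water array, a 7.58-fold difference close to background, and 129.2 and 112.1 in Chinese Spring PEG and water. RPL9, of the large subunit, had 1.9 and 12.3 in Luohan No.2 PEG and water and 48.8 and 64.3 in Chinese Spring PEG and water, where the first value is below the background floor of 10.6.

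Of these 5 probe sets, 1 was at least 2-fold apart with PEG in Luohan No.2 and 0 of 5 were in Chinese Spring, with medians of 0.13 and -0.14. Of all measured probe sets, 17.7% and 20.5% were that far apart, so these counts are near the general share. In limma 0 of 5 passed for PEG, against 1.32% of all tested probe sets, and 1 of 5 passed for cultivar, against 2.06%. For PEG, 1 had an unadjusted p under 0.05, a count with no share over all probe sets given here. The probe set that passed for cultivar is described next. That one was RPL9, at least 4.60-fold lower in Luohan No.2 in PEG and 5.23-fold lower in water (limma adjusted p = 0.00941). It passed in 4 of 14 alternative fits that tested it, with limma adjusted p between 0.00763 and 0.605. RPL9 was dim, with signals of at most 64.3, and the median signal over all probe sets was also lower on the Luohan No.2 arrays. The green-tissue genes given above were likewise lower in Luohan No.2. Whether either had a part in the RPL9 difference was not tested.

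**Figure D3:**
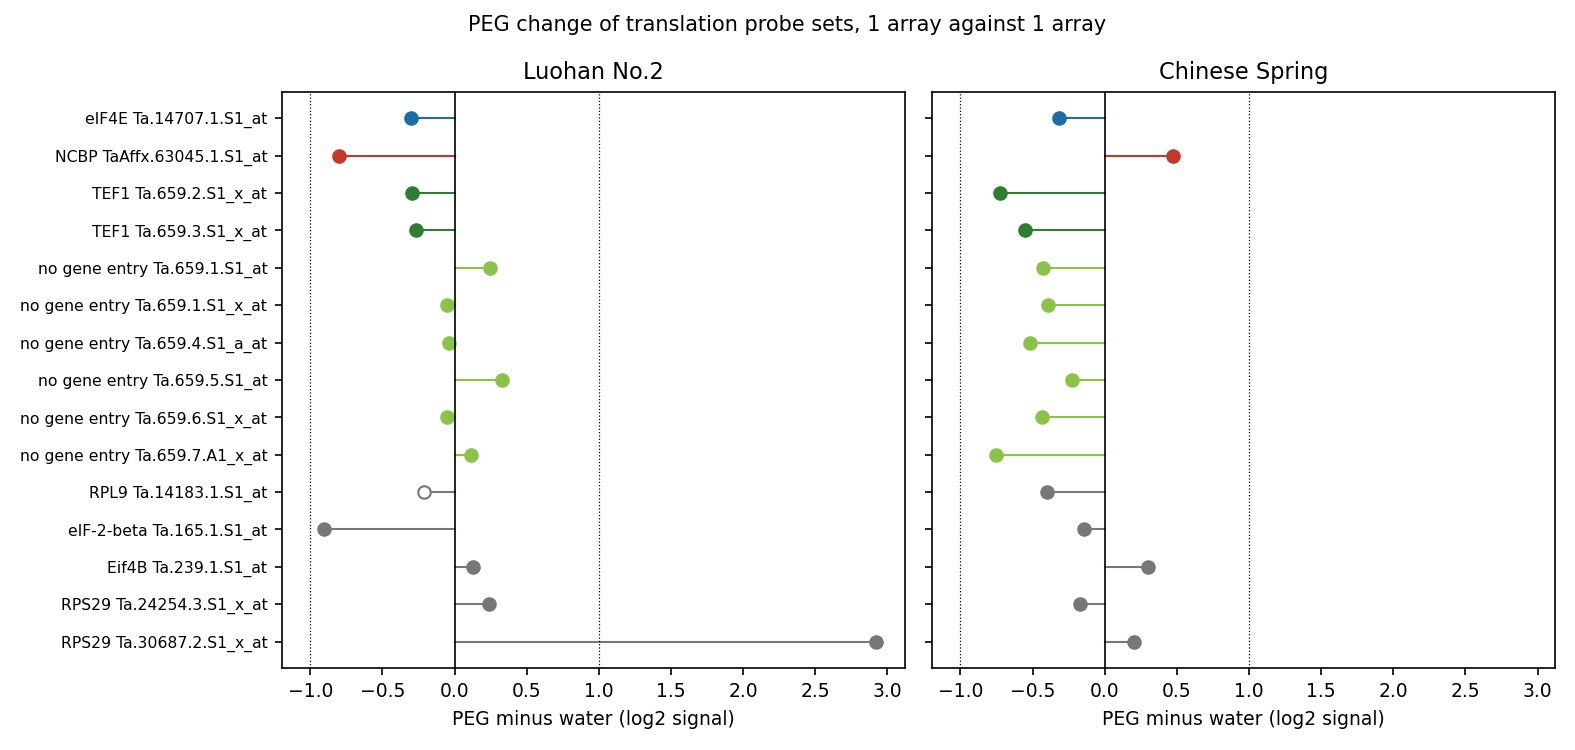
Points give the log2 change with PEG of each translation probe set in Luohan No.2 (left) and Chinese Spring (right), 1 array against 1 array; dotted lines mark 2-fold, light green points are TEF1 cluster probe sets with no gene entry, and the open point (RPL9 in Luohan No.2) is a bound. All 8 TEF1 cluster probe sets lie left of 0 in Chinese Spring and 5 of 8 in Luohan No.2, and NCBP lies on opposite sides of 0.

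The named genes whose profile over the 4 arrays came nearest to each member were found by the root mean square difference of log2 signals after each gene's own mean was taken off, among 56 named genes above background on all arrays. With 4 arrays this likeness is loose. Because the genes were chosen by it, an array order shared with a member follows largely from the choice. Nearest to eIF4E were APRT, an adenine salvage enzyme, at 0.12, then DMAS1 at 0.16 and RPS29 at 0.20. RPS29, by its brighter probe set, was higher with PEG in Luohan No.2 (214.3 against 181.8), where eIF4E was lower. APRT had 2962.4 and 3529.0 on the Luohan No.2 PEG and water arrays and 2347.1 and 2592.1 on the Chinese Spring PEG and water arrays, in the same order as eIF4E. Nearest to NCBP were ALP at 0.13, GSTZ1, a glutathione transferase, at 0.15 and the histone gene H2A-2 at 0.20. ALP had 1374.6 and 2084.1 in Luohan No.2 PEG and water and 1449.5 and 1285.3 in Chinese Spring PEG and water, so it too was highest on the Luohan No.2 water array.

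TEF1, by its brighter probe set, had no neighbour as close: the thionin THI1.1 lay at 0.22, and cys1 and Pgk-1 lay at 0.25. All 3 had their highest signal on the Chinese Spring water array, as TEF1 did, which the choice by profile largely builds in. Among the members, eIF4E and NCBP lay 0.37 apart, nearer to each other than either was to TEF1, from which both lay 0.70 away.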

How the data were processed

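Total RNA of 4 root samples was labelled with biotin and measured on 1 array each. The deposited values are linear intensities, 1 for each probe set, made by the authors with MAS5, per the submitters' processing notes, which name no version. MAS5 scales each array by 1 factor, and weak probe sets are noisy. The number of arrays limits the precision.

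Of 61290 probe sets, 111 controls were set aside. Signals were floored at their 40th percentile, 10.6, and log2 was taken. Differences of 1 array from 1 array have no test. Additive fits used limma 3.58.1 in R 4.3.3 (lmFit, eBayes, Benjamini-Hochberg over the 48877 probe sets that passed the floor on some array, threshold 0.05). The step was run on simulated data with independent noise, an additive PEG effect and no cultivar effect. That run checked the size and direction of fitted changes, and it does not show that the p-values hold for these arrays. Figures used matplotlib 3.10.9.

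Names come from the platform annotation, updated by gene identifier through a RefSeq table of the assembly IWGSC CS RefSeq v2.1, in which 770 of 771 genes were found. No sequences were used here. Members and gene lists were chosen with earlier results of these data known. The genes named are every probe set of the members and of the translation list, and the 3 nearest named genes to each member by brightest probe set. The name eIF-2-beta was matched to that list's eIF2. Alternatives changed the floor, pseudocount, scaling, filter, prior, block or arrays used.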

Additional observations from a re-analysis of the deposited data

Results flagged for a closer look

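The NCBP response was opposite in direction in the cultivars: the signal was lower with PEG in Luohan No.2 and higher in Chinese Spring, and the log2 change in Luohan No.2 minus that in Chinese Spring was -1.27. This difference was not tested, since each side is 1 array against 1 array. It lay between -1.88 and -1.21 over the 7 alternative floors, scalings and the pseudocount. A single probe set reads NCBP on this array.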

How the results depend on the processing

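The counts of members 2-fold apart with PEG were 0 under every floor, the pseudocount, quantile normalization and median scaling, and the count in Luohan No.2 was 1 (NCBP) with arrays scaled to the hybridisation controls, a setting chosen after the data were seen that shifted all log2 changes by -0.48 in Luohan No.2 and 0.13 in Chinese Spring. Under that setting eIF4E and NCBP were also at least 2-fold higher in Luohan No.2 in water, and the responses of Luohan No.2 minus Chinese Spring were -0.59 for eIF4E and -1.88 for NCBP. The limma counts of members passing were 0 for PEG and for cultivar in all 15 alternatives run, and in 3-array fits made without a block they ranged from 0 to 0. The count over all probe sets depended far more on the fit: for PEG it was 645, but 1327 with a prior that follows signal, 404 with quantile normalization, 119 with hybridisation control scaling, and 0 with the other floors, the pseudocount, no filter, no block, or no block and 1 array left out. For cultivar it was 1005, against 214 and 52 for floors at the 60th percentile and at 100, 191 with the pseudocount, 663 and 372 with those scalings, and 0 with the floor at the 20th percentile, no filter, no block, or no block and 1 array left out. The adjusted p of the members in limma ranged from 0.393 to 1 for PEG and from 0.267 to 1 for cultivar. Fits on 3 arrays were made without the block, since with it no residual degrees of freedom remain, so 2 choices changed at once there. In them the limma PEG effect of NCBP ranged from -0.62 to 0.29 and was positive without the Luohan No.2 PEG array (0.02) and without the Luohan No.2 water array (0.29). Its cultivar effect ranged from -0.13, without the Luohan No.2 water array, to 0.68. The cause of these turns was not tested. The cap-binding minus elongation change in Chinese Spring was 0.72, but 0.49 with quantile normalization, 0.32 with eIF4E alone and 1.11 with NCBP alone. Against all 8 TEF1 cluster probe sets the average of both genes was -0.55 in Luohan No.2 and 0.58 in Chinese Spring. Without cross-hybridising probe sets TEF1 had no value, so this difference could not be formed. Arrays were paired within cultivar or treatment by the block of the main limma fits. A further pairing by replicate number could not be made with 1 array per group.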
